A study of Mus musculus with 4 samples.

Results

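Genes of the extracellular matrix and of the fibroblasts that build it were followed on 4 arrays of microglia, the macrophages that live in the brain, kept in culture from mice. The list names 40 genes for collagens, proteoglycans, glycoproteins, matrix enzymes, secreted regulators, receptors and transcription factors. It was drawn up because fibroblast genes differed between these cultures, so the values of its genes are given as a description and support no test. A value was found for 38 of the 40 genes, out of 19938 genes in all, each from a single probe set. Fbn1 (fibrillin-1) and Spp1 (osteopontin) are not analysed here.

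The extracellular matrix is a mesh of secreted proteins. Fibrillar collagens give it tensile strength, proteoglycans and microfibrils organise the fibrils, basement membranes underlie cell sheets and vessels, and matricellular proteins modify how cells respond to the mesh. In the brain, the classical source of collagen I, collagen III, decorin and lumican is the fibroblast of the meninges and of the vessel wall. Microglia and other macrophages make some matrix-associated proteins themselves, among them thrombospondin-1, fibronectin and osteopontin, and express the intermediate filament vimentin.

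The arrays were of the Affymetrix Mouse Gene 1.0 ST design, whose probes lie all along a transcript. The groups were wild-type (WT) C57Bl cells without an agent, WT C57Bl cells with lipopolysaccharide (LPS, a bacterial cell wall component) for 3 h, Bid-/- cells without an agent and Bid-/- cells with LPS for 3 h. Each group was 1 array, so no difference has a replicate check and no p-value is given. The labels used here name no strain for the Bid-/- cells and no count of animals or cultures behind an array, so genotype, strain and culture cannot be told apart.

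All values are deposited expression values read as log2, so a difference of 1.00 is 2-fold. A level of 4.26, the median over all 28944 probe sets, served as a floor, and a comparison took in a gene if at least 1 of its arrays reached the floor. Of the 38 genes, 27 reached the floor on all 4 arrays. Another 8 did so on some arrays. Lum, Postn and Mgp stayed below it on every array. Levels are compared between arrays for the same gene and never between genes, because probe sets differ in brightness. Bid, the BH3-only death gene whose loss the labels state, read 5.69 (WT control), 5.02 (WT LPS), 5.53 (Bid-/- control) and 5.97 (Bid-/- LPS), a difference between the labels of -0.16 without LPS and 0.95 with it. Where its probes lie against the deleted part is unknown here, so this reading does not check the labels, and genotypes below are those the labels give. Of 13 microglial markers with a value, among them Csf1r, Itgam and C1qa, all reached the floor on every array except P2ry12, which read 4.33 and 4.38 on the control arrays and 3.91 and 3.90 with LPS.

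The WT control array stood lowest for most matrix genes. Of the 35 genes that reached the floor on at least 1 array, 25 had their lowest value there (17.9% of all 11326 genes at the floor did). For the 12 genes that spanned at least 1.00 over the 4 arrays, it was lowest in 12 of 12, where 33% of the 1019 genes with such a span were lowest on it. Sfrp4 counts among them through its WT LPS value alone: its other 3 values lay below the floor, with 0.08 between the lowest and the next, so its lowest array has no meaning. These 12 were Dcn, Bgn, Fn1, Sparc, Ccn1, Fstl1, Igfbp7, Serpinh1, Nid1, Tnc, Thbs1 and Sfrp4. For 7 of them (Dcn, Bgn, Fn1, Sparc, Ccn1, Fstl1 and Igfbp7) the step from the WT control array to the next lowest array was larger than the whole spread among the other 3 arrays. The share of all genes with such a step was not counted, so nothing is read from the 7. Igfbp7, a secreted protein that binds insulin-like growth factors, shows the step most evenly among those 7. Its WT control value was 6.15, and the others were 7.22 (WT LPS), 7.18 (Bid-/- control) and 7.08 (Bid-/- LPS). These arrays measured RNA of whole cultures, so fewer cells of a type and less RNA per cell cannot be told apart. Because 3 of the comparisons below use the WT control array or are built on it, they are views of the same 4 values and not separate findings.

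**Figure D1:**
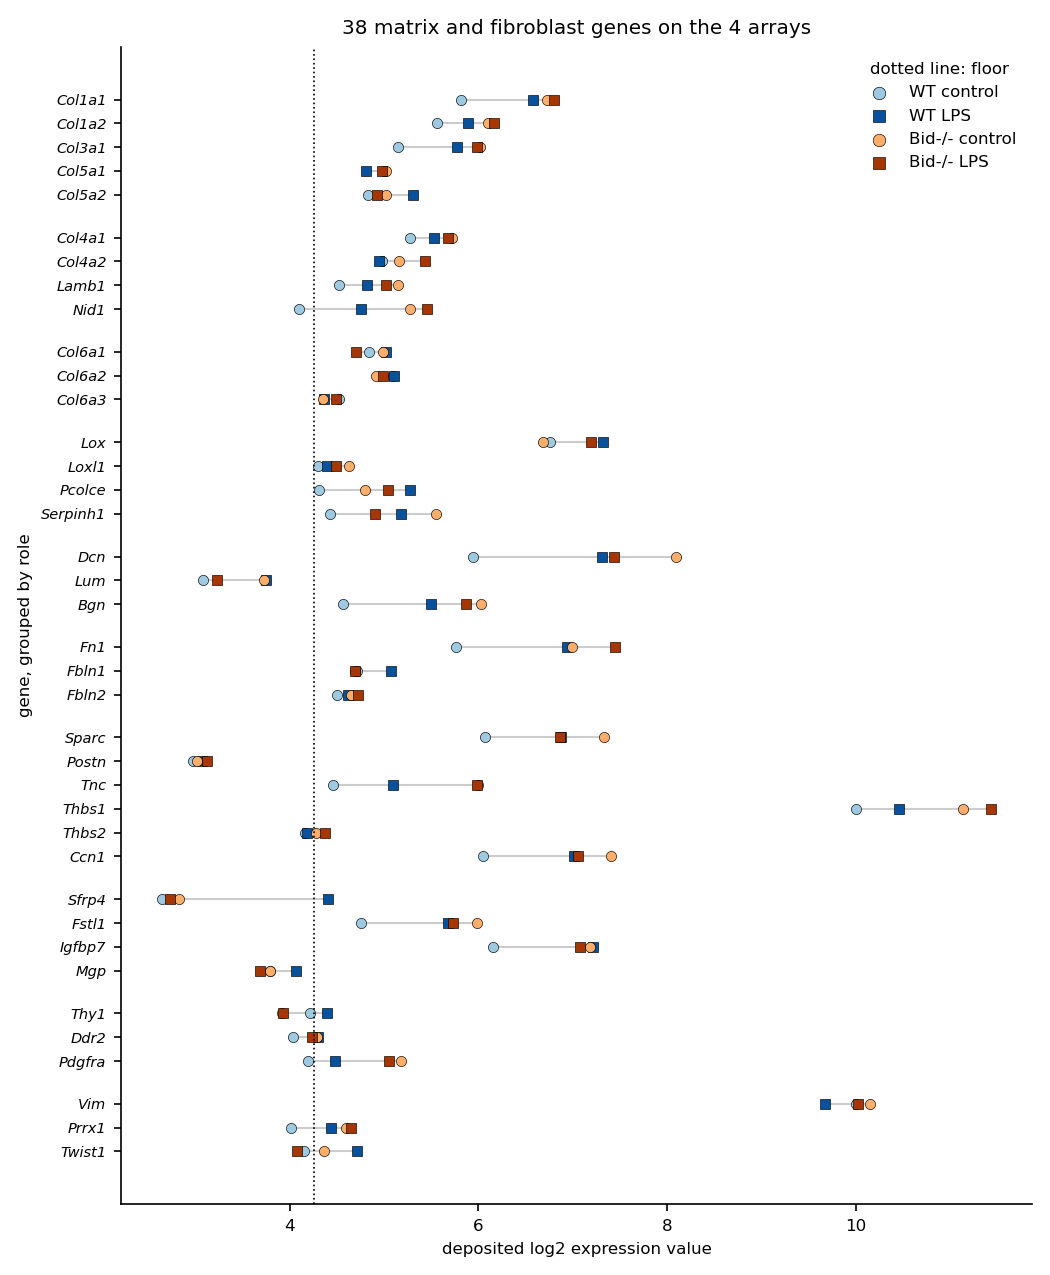
Deposited log2 value (horizontal axis) of each of the 38 matrix and fibroblast genes on the 4 arrays, grouped by role; circles are controls, squares LPS, blue WT and orange Bid-/-, the grey line spans the 4 values and the dotted line is the floor of 4.26. The WT control circle lies at the left end for 25 of the 35 genes that reach the floor.

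Without LPS, the Bid-/- array read 11 of 33 matrix genes at least 2-fold higher than the WT control array and 0 at least 2-fold lower. Over all genes the shares were 0.358% and 0.0733%. The median difference of the 33 genes was 0.54, or 0.47 over all 38 with a value, beside 0.01 for all genes. The list was chosen because its genes differed between these cultures, with all 4 arrays in view, so nothing is read from the counts in this or any other comparison here. The 11 genes were Dcn (2.15), Tnc (1.54), Bgn (1.46), Ccn1 (1.36), Sparc (1.26), Fn1 (1.23), Fstl1 (1.22), Nid1 (1.17), Thbs1 (1.14), Serpinh1 (1.12) and Igfbp7 (1.03). Of these, Nid1 alone lay below the floor on the WT control array (4.10). At a fold of 1.5, 16 genes were higher (1.45% of all genes) and 0 lower (0.44%). The 4 genes below 0, beside 4996 of all 10909 genes, were Col6a2 (-0.19), Col6a3 (-0.17), Lox (-0.07) and Fbln1 (-0.02).

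With LPS, the WT array read 4 of 34 matrix genes at least 2-fold higher than its control, beside 2.39% of all genes, and 0 at least 2-fold lower, beside 2.08%. They were Sfrp4 (1.76), Dcn (1.37), Fn1 (1.18) and Igfbp7 (1.07). Sfrp4 entered through its WT LPS value alone. Its WT control value, 2.65, lay below the floor, so nothing is read from its difference. The median of the 34 genes was 0.47, beside -0.05 for all genes, and 30 of the 34 were above 0, beside 4897 of all 11129 genes. Under the Bid-/- label, which uses none of the same arrays, 0 of 33 were at least 2-fold higher (2.7% of all genes) and 0 at least 2-fold lower (1.65%). The median there was -0.04, beside -0.10 for all genes, with 13 above 0, 19 below and 1, Fbln1, at 0. Of all 10995 genes, 4248 were above 0 and 6607 below. The list thus differed in its LPS median between the labels, and with 1 array a group that difference was not tested. At a fold of 1.5, 14 matrix genes were higher with LPS in WT (5.8% of all genes) and 0 lower (11.1%). At that fold 0 were higher under the Bid-/- label (6.88%), where 2, Dcn and Serpinh1, were lower (10.4%). Of all 35 genes, 0 were at least 1.5-fold higher with LPS under both labels, beside 3.63% of all genes.

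**Figure D2:**
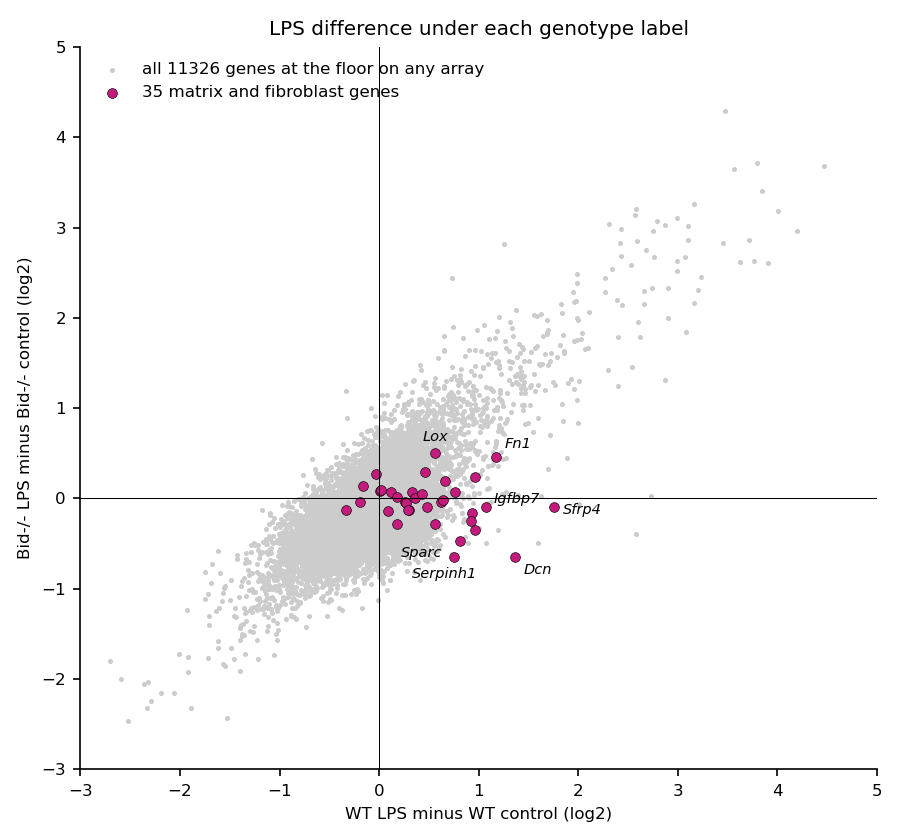
Difference with LPS in WT (horizontal axis) against that under the Bid-/- label (vertical axis), both log2, for all 11326 genes at the floor on any array (grey) and the 35 matrix and fibroblast genes among them (magenta). The magenta points spread to the right along the zero line, from Sfrp4 at 1.76 and Dcn at 1.37 in WT to values between -0.65 and 0.50 under the Bid-/- label.

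Among fibrillar collagens, the rope-like collagens of connective tissue, the I and III chains were lowest on the WT control array and next on the WT LPS array. Col1a1, a chain of collagen I, read 5.82 on the WT control array, 6.58 on the WT LPS array, 6.73 on the Bid-/- control array and 6.80 on the Bid-/- LPS array. Its partner chain Col1a2 read 5.56, 5.89, 6.10 and 6.17 in the same order. Col3a1, the collagen III chain, read 5.15, 5.77, 6.02 and 5.98. For all these chains the Bid-/- arrays were highest and within 0.07 of each other, and which of them was higher differed between collagen I and III. The collagen V chains, which start and thin collagen I fibrils, did not follow that pattern. Col5a1 read 5.00, 4.81, 5.02 and 4.98, with no array far from the others. Col5a2, the next gene to Col3a1 on chromosome 1, read 4.83, 5.31, 5.02 and 4.92 and was highest on the WT LPS array. The neighbouring collagen genes therefore differed in which array read highest.

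Genes for collagen maturation also differed in which array was highest. Serpinh1 encodes HSP47, the collagen chaperone of the endoplasmic reticulum, and read 4.43 (WT control), 5.18 (WT LPS), 5.55 (Bid-/- control) and 4.90 (Bid-/- LPS). It was 0.75 higher with LPS in WT and 0.65 lower with LPS under the Bid-/- label. Pcolce, an enhancer of procollagen C-proteinase, read 4.31, 5.27, 4.80 and 5.04, higher with LPS under both labels (0.96 and 0.24). Lox, lysyl oxidase, which cross-links collagen and elastin, read 6.76, 7.32, 6.69 and 7.19. It was the matrix gene whose LPS difference was most alike under the labels among those above 0.40 in both (0.56 and 0.50), and its genotype differences were -0.07 and -0.13. Only Lox and Fn1 were more than 0.40 higher with LPS under both labels. Its relative Loxl1 stayed between 4.30 and 4.63, close to the floor.

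The small leucine-rich proteoglycans coat collagen fibrils. Dcn (decorin), which had the widest span of the 38 genes over the 4 arrays, read 5.94 on the WT control array, 7.31 on the WT LPS array, 8.09 on the Bid-/- control array and 7.44 on the Bid-/- LPS array. Without LPS that is a 4.44-fold difference between the labels, and with LPS the difference was 0.13. Bgn (biglycan) read 4.57, 5.50, 6.03 and 5.87, with a 2.75-fold difference without LPS and 0.37 with it. In both genes the WT control array lay apart and the Bid-/- control array was highest. Lum (lumican), the gene next to Dcn on chromosome 10, read 3.08, 3.75, 3.73 and 3.23, below the floor on every array. A difference between values that low is not given as a fold.

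The 4 basement membrane genes of the list read higher on both Bid-/- arrays than on both WT arrays. So did 20 of the 35 listed genes at the floor, beside 12.4% of all genes, and 2 of the 5 other basement membrane genes at the floor, Lama5 and Lamc1. Col4a3 and Col4a4, of those 5, were lower without LPS (-0.14 and -0.09). Nid1 (nidogen-1, which links laminin to collagen IV) read 4.10 (WT control), 4.76 (WT LPS), 5.27 (Bid-/- control) and 5.46 (Bid-/- LPS), with both Bid-/- arrays above both WT arrays. Lamb1, a laminin beta chain, read 4.52, 4.82, 5.15 and 5.02 and also kept the labels apart. The collagen IV chains Col4a1 and Col4a2 lie head to head on chromosome 8 and form one heterotrimer. Col4a1 read 5.27, 5.53, 5.72 and 5.68. Col4a2 read 4.98, 4.95, 5.16 and 5.43, and its highest array was Bid-/- LPS. For each chain both Bid-/- arrays read above both WT arrays, by 0.45 and 0.15 (Col4a1) and 0.18 and 0.48 (Col4a2) without and with LPS. The collagen VI genes, which make beaded microfilaments, were nearly level: Col6a1 ranged from 4.70 to 5.02, Col6a2 from 4.91 to 5.11 and Col6a3 from 4.35 to 4.52.

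Fn1 (fibronectin, a cell-adhesive glycoprotein) read 5.76 on the WT control array, 6.94 on the WT LPS array, 6.99 on the Bid-/- control array and 7.45 on the Bid-/- LPS array. It was higher with LPS under both labels, by 1.18 and 0.46, and on the Bid-/- array in both conditions, by 1.23 and 0.51. The fibulins, which bind elastic fibres and basement membranes, moved less. Fbln1 read 4.71, 5.07, 4.69 and 4.69, with the WT LPS array alone above the others, and Fbln2 stayed between 4.50 and 4.72.

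Matricellular genes held both of the main patterns. Thbs1 (thrombospondin-1, which binds CD47 and activates latent TGF-beta) read 10.00 (WT control), 10.46 (WT LPS), 11.14 (Bid-/- control) and 11.43 (Bid-/- LPS). Tnc (tenascin-C, a glycoprotein of injured tissue and a TLR4 ligand) read 4.46, 5.10, 6.00 and 5.98. For these genes both Bid-/- arrays were above both WT arrays, by 1.14 and 0.97 for Thbs1 and by 1.54 and 0.88 for Tnc. Ccn1 (a heparin-binding integrin ligand) read 6.05, 7.01, 7.41 and 7.06. Sparc (osteonectin, a collagen-binding protein) read 6.07, 6.88, 7.33 and 6.86. Here the labels differed without LPS, by 1.36 and 1.26, while the LPS arrays lay within 0.05 of each other. Thbs2 stayed between 4.16 and 4.37 and Postn (periostin) between 2.97 and 3.12, near the floor and below it.

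Upstream sequence was looked at for the listed genes, whether or not they stood low on the WT control array. RefSeq windows on build GRCm38.p6 were at hand for 27 of the 38 genes and for 8 of the 12 with a span of at least 1.00. The 250 bases before the annotated start are given 5′ to 3′ on the gene's strand for Ccn1 and Sparc, whose labels differed without LPS alone, and for Tnc and Nid1, whose labels differed in both conditions. Capitals mark matches on either strand to TATAAA (the TATA box), CCAAT (bound by NF-Y), TGANTCA (AP-1), GGAATG (TEAD factors) and the CArG box (serum response factor).
Ccn1, chr3:145649986-145650235, minus strand: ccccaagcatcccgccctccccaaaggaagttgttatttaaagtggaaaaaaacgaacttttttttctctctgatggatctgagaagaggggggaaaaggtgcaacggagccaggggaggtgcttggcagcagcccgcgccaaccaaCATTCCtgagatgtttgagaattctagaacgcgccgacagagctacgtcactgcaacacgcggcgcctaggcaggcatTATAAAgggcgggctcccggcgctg
Sparc, chr11:55420081-55420330, minus strand: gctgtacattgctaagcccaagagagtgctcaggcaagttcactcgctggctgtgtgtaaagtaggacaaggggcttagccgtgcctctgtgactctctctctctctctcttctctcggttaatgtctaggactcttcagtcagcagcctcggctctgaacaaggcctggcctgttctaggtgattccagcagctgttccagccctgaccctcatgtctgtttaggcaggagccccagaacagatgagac
Tnc, chr4:64047016-64047265, minus strand: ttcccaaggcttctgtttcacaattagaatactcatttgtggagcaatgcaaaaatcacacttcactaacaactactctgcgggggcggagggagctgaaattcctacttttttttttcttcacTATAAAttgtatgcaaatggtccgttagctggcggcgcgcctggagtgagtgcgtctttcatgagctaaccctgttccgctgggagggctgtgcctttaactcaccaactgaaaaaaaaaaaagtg
Nid1, chr13:13437352-13437601, plus strand: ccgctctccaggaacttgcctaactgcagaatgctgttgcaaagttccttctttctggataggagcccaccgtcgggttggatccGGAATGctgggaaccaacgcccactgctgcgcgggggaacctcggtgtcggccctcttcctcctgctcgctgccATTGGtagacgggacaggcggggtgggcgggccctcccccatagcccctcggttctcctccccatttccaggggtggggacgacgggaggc
Ccn1 holds TATAAA from base -25 to -20 and GGAATG, on the opposite strand, from -103 to -98. Nid1 holds GGAATG from -165 to -160 and CCAAT, on the opposite strand, from -91 to -87. Tnc holds TATAAA from -126 to -121 in the window given. Another annotated start of Tnc places the same TATAAA from -205 to -200. Sparc holds none of the marked motifs. No marked matches overlap in these windows.

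No motif searched was common to the genes. TATAAA was found in 8 of the 27 genes (29.6%, beside 14.3% of 27025 genes with a window), CCAAT in 8 (29.6%, beside 37.5%) and GGAATG in 5 (18.5%, beside 14.4%). TGANTCA was found in 1, Col6a1 (3.7%, beside 7.82%), and the CArG box in 0, beside 1.62%. The E-box CANNTG, bound by Twist1 among other factors, is not marked because it is frequent: 11 of the 27 genes hold it (40.7%), beside 69.3%. The 27 genes include some that were not lowest on the WT control array, such as Vim and Twist1. Of the 8 with a window that spanned at least 1.00, TATAAA was found in 2, CCAAT in 1 and GGAATG in 2. TGANTCA and the CArG box were found in 0 of the 8 and the E-box in 3. All of these are matches of letters in a short window and show neither binding nor its absence.

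Among the secreted regulators, Sfrp4 stood out. Sfrp4 (a secreted Wnt antagonist) read 2.65 on the WT control array, 4.41 on the WT LPS array, 2.83 on the Bid-/- control array and 2.73 on the Bid-/- LPS array. It passed the floor on the WT LPS array alone, so the differences past 2-fold that it shows rest on that array. Fstl1 (follistatin-like 1, a secreted glycoprotein) read 4.76, 5.68, 5.98 and 5.73, and resembled Sparc and Ccn1 in that the LPS arrays were within 0.05 of each other. Mgp (matrix Gla protein, an inhibitor of calcification) stayed between 3.69 and 4.07, below the floor.

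Fibroblast receptors and transcription factors were close to the floor. Pdgfra, the PDGF receptor alpha of fibroblasts and oligodendrocyte precursors, read 4.19 (WT control), 4.48 (WT LPS), 5.18 (Bid-/- control) and 5.05 (Bid-/- LPS). Both Bid-/- arrays were higher, by 0.99 and 0.57. Ddr2, a collagen receptor kinase, stayed between 4.03 and 4.30. Thy1, a glycoprotein of fibroblasts and neurons, read 4.22, 4.40, 3.92 and 3.93 and was below the floor on all but the WT LPS array. Prrx1, a mesenchymal homeobox factor, read 4.01, 4.44, 4.60 and 4.65. Twist1, a mesenchymal bHLH factor, read 4.15, 4.71, 4.36 and 4.08 and was highest on the WT LPS array. Vim (vimentin), which microglia express themselves, read 10.00, 9.67, 10.15 and 10.02 and did not follow the WT control pattern.

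With LPS, the matrix genes lay on both sides of 0 between the labels. The Bid-/- array read 0 of 35 at least 2-fold higher than the WT array (0.326% of all genes) and 1, Sfrp4 (-1.68), at least 2-fold lower (0.489%). Sfrp4 entered through its WT LPS value alone, as its Bid-/- LPS value of 2.73 lay below the floor. The median of the 35 genes was 0.13, beside 0.01 for all genes, with 22 above 0 and 13 below. Of all 11044 genes, 5625 were above 0 and 5274 below. At a fold of 1.5, Thbs1, Tnc and Nid1 were higher (4.69% of all genes) and Sfrp4 and Twist1 lower (6.07%). Thbs1, Tnc and Nid1 were the 3 of 35 genes at least 1.5-fold higher on the Bid-/- arrays in both conditions, beside 0.415% of all genes. For Nid1 the WT control value, 4.10, lay below the floor. The conditions share no array. Between the LPS arrays the difference followed gene span, the length from first to last base of the gene, with Spearman's rho 0.399 across 11019 genes and 0.304 across the 35 matrix genes. Genes on the same arrays are not independent points, and with the trends with intensity and span removed the median of the 35 was -0.003.

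**Figure D3:**
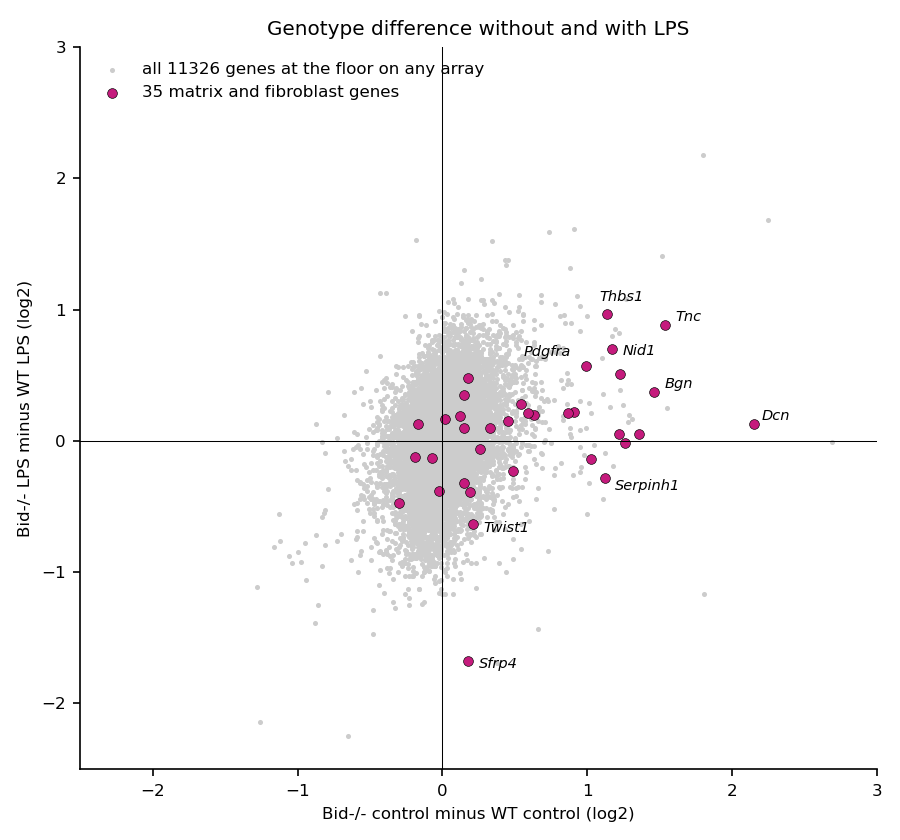
Difference between the Bid-/- and the WT array without LPS (horizontal axis) and with LPS (vertical axis), both log2, for all 11326 genes at the floor on any array (grey) and the 35 matrix and fibroblast genes (magenta). Dcn lies farthest right at 2.15 and 0.13, Tnc, Thbs1 and Nid1 lie high on both axes, and Sfrp4 lies at 0.18 and -1.68.

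The LPS difference under the Bid-/- label minus that in WT was at least 2-fold lower for 8 of 35 matrix genes, beside 0.627% of all genes, and at least 2-fold higher for 0, beside 0.159%. The 8 were Dcn (-2.02), Sfrp4 (-1.86), Serpinh1 (-1.40), Ccn1 (-1.31), Sparc (-1.28), Fstl1 (-1.17), Igfbp7 (-1.17) and Bgn (-1.09). Of these, Sfrp4 is counted through its WT LPS value alone, its other values being below the floor. The median of the 35 genes was -0.43, beside 0.00 for all genes. The genes above 0 were Col4a2 (0.30), Col6a3 (0.30), Vim (0.20), Col5a1 (0.15), Col6a2 (0.07) and Thbs2 (0.07). At a fold of 1.5, 14 were lower (6.06%) and 0 higher (3.26%). This quantity uses all 4 arrays and leaves no residual.

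Other matrix genes, from a list that holds none of the 40, were read in the same comparisons. Of 63 at the floor without LPS, 2 were at least 2-fold higher on the Bid-/- array (0.358% of all genes) and 0 lower (0.0733%), with a median of 0.10. The highest were Ccn2, the connective tissue growth factor (1.11), Pdpn, podoplanin (1.01), and Vcan, the proteoglycan versican (0.85), and the lowest were Igfbp4 (-0.70), Col14a1 (-0.57) and Loxl3 (-0.43). Vcan read 4.74 (WT control), 4.63 (WT LPS), 5.59 (Bid-/- control) and 5.53 (Bid-/- LPS), so it kept the labels apart as Tnc did. With LPS in WT 5 of 64 were at least 2-fold higher (2.39% of all genes) and 0 lower (2.08%). Sdc4, a cell-surface proteoglycan (1.85), Igfbp6 (1.40) and the fibronectin receptor chain Itga5 (1.31) were highest. Under the Bid-/- label 3 of 66 were at least 2-fold higher (2.7% of all genes) and 0 lower (1.65%). The 3 were Sdc4 (1.81), Itga5 (1.63) and the PDGF receptor Pdgfrb (1.11).

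Within the other matrix genes, Sdc4 and Itga5 read at least 2-fold higher with LPS under both labels. So did 0 of the 35 listed genes, beside 1.65% of all genes, and nothing is read from that 0. Sdc4 read 9.23 (WT control), 11.08 (WT LPS), 9.39 (Bid-/- control) and 11.20 (Bid-/- LPS). The LPS arrays were both high and the controls both low. Of the further collagens, 0 of 13 were past 2-fold in any of the comparisons, and their mean minus that on the WT control array was 0.17 (WT LPS), -0.01 (Bid-/- control) and 0.06 (Bid-/- LPS). The collagen-modifying enzymes P4ha1, Plod1 and Plod3 were lower with LPS in WT (-0.62, -0.59 and -0.42) and under the Bid-/- label (-0.30, -0.49 and -0.39). Of 11 such enzymes at the floor, 7 were below 0 in WT, beside 6086 of all 11129 genes. Under the Bid-/- label 10 of the 11 were, beside 6607 of 10995. The 1 above 0 there, Bmp1 (0.19), was also above 0 in WT (0.29).

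Markers of other cells that a glial culture can hold were read on the same arrays. For smooth muscle and pericytes, 6 of 12 reached the floor. The linear values of all 12 summed to 270.2 (WT control), 426.5 (WT LPS), 325.6 (Bid-/- control) and 286.4 (Bid-/- LPS). Every sum here takes in all genes with a value, also those below the floor. Tagln read 5.10, 6.70, 5.76 and 5.27 and Acta2 6.26, 7.15, 6.75 and 6.25, highest on the WT LPS array as Sfrp4 was, while Cnn1, Des, Rgs5, Abcc9, Cspg4 and Lmod1 were below the floor. For leptomeninges, 5 of 11 reached the floor, with sums of 174.5, 207.2, 193.2 and 194.1, and Slc6a13, Slc22a6, Slc22a8, Zic1, Crabp2 and Gjb2 below it. For astrocytes, 7 of 10 reached it, with sums of 171.9, 224.7, 182.5 and 205.1, and Gfap, Aqp4 and Gjb6 below it. The 38 listed matrix genes summed to 3196, 4031, 5441 and 5716. Such a sum weights genes by the brightness of their probe sets. Thbs1 and Vim, which microglia make themselves, weighed most in it (2048, 2223, 3393 and 3797). The other 36 genes summed to 1148, 1808, 2048 and 1919, highest on the Bid-/- control array. They still hold Fn1, which microglia also make, and Sparc, counted below among the genes known from macrophages.

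For endothelium 5 of 9 markers reached the floor (sums 152.7, 171.2, 161.5 and 177.5, with Kdr, Tek, Tie1 and Emcn below it), for oligodendrocytes 6 of 8 (541.1, 354.2, 602.3 and 402.1, with Olig2 and Mobp below it) and for neurons 2 of 8 (103.5, 108.4, 102.2 and 100.2, with Rbfox3, Snap25, Syt1, Tubb3, Map2 and Stmn2 below it). These sums, too, hold the markers below the floor. The sums for smooth muscle and pericytes, leptomeninges, astrocytes and endothelium were lowest on the WT control array, as was that of the matrix genes. The part of these cells in the matrix differences was not tested. The oligodendrocyte sum was mostly Cnp, which read 8.58 (WT control) and 7.60 (WT LPS). Microglial markers summed to 16240, 15750, 16240 and 13530, so the control arrays were level in them while the matrix genes differed. Between the LPS arrays, 8 of 12 at the floor were lower on the Bid-/- array, beside 5274 of all 11044 genes. The lowest were Trem2 (-0.86) and Tyrobp (-0.64). The 4 that were higher were Ptprc (0.44), Csf1r (0.36), Sall1 (0.16) and Itgam (0.15). Differences between these arrays followed gene span, with rho 0.399 across 11019 genes, and the part of span in the markers was not tested. Of 18 further fibroblast receptors and factors, 8 reached the floor (Pdgfrb, Pdpn, Cd34, Ddr1, Eng, Itga5, Itgb1 and Snai1) and 10 stayed below it on every array, among them Fap, Twist2, Snai2, Tcf21 and Meox1. Those at the floor differed in their lowest array. It was the WT control array for Pdpn, Pdgfrb and Snai1. For Cd34, Eng and Itgb1 it was the WT LPS array, and for Ddr1 and Itga5 the Bid-/- control array. Pdpn read 6.25 (WT control), 7.48 (WT LPS), 7.26 (Bid-/- control) and 7.77 (Bid-/- LPS).

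**Figure D4:**
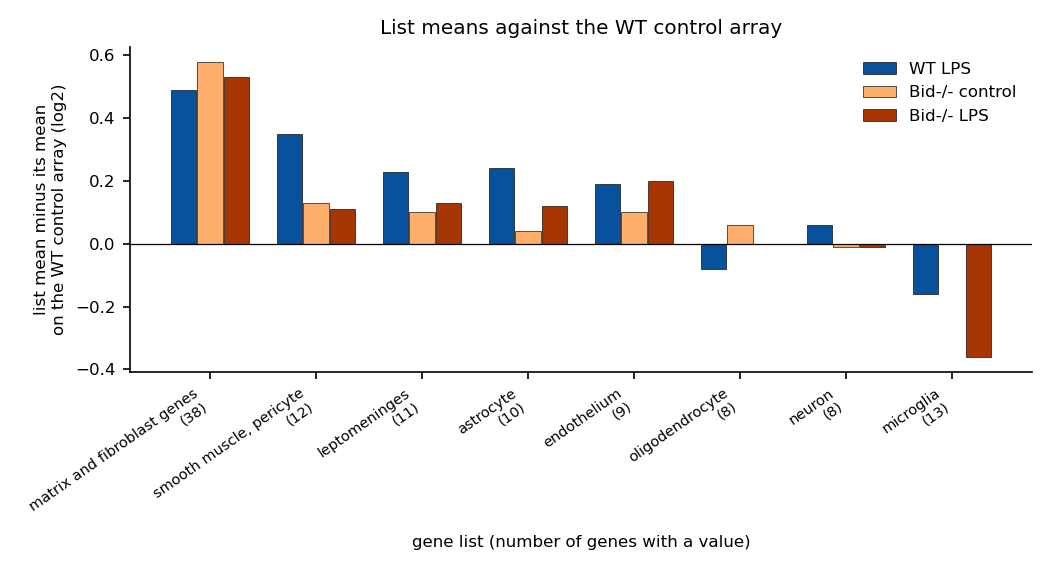
Mean log2 value of each gene list on the WT LPS, Bid-/- control and Bid-/- LPS arrays minus its mean on the WT control array (vertical axis), with the number of genes with a value under each list. The matrix and fibroblast genes stand at 0.49, 0.58 and 0.53, the smooth muscle and pericyte markers at 0.35, 0.13 and 0.11, and the microglial markers at -0.16, 0.00 and -0.36.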

How the data were processed

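The authors deposited 1 table of log2 expression values for 28944 probe sets on 4 Affymetrix Mouse Gene 1.0 ST arrays. Per the submitters' processing notes the tools were RMA, Partek 6.2 and Affymetrix Expression Console, and what each did is not stated. The log base was read from the values (up to 13.5, with 2 decimals) and is not written in the file. RMA usually equalises the arrays' distributions, which takes out any shift common to all genes. Precision is limited by the number of arrays.

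Gene names came from GEO's platform annotation, in which 21789 probe sets have 1 symbol, 1621 have more and 5534 have none; only the first kind was named. The probe set with the highest mean stood for a gene. Differences of log2 values were taken between arrays with pandas 2.3.3 and tested on simulated data. For 2 alternatives, lowess took out the trend with mean level and with gene span (fraction 0.3, statsmodels 0.14.6). Gene span, gene order and upstream sequence are from RefSeq, GRCm38.p6.

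The list, its groups and the other lists were chosen with earlier results of these data known. Named genes were all listed genes, the 3 highest and 3 lowest other matrix genes per comparison, cell type markers, Bid and the 10 genes nearest in profile. Outside that rule, Plod3, Bmp1, Lama5, Col4a3, Col4a4, Ddr1, Eng, Snai1, Fap, Twist2, Snai2, Tcf21 and Meox1 were named after their values were seen. Alternatives were other floors, quantile normalization, trend removal, the mean of a gene's probe sets, a 1.5-fold threshold and the list without genes known from macrophages.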

Additional observations from a re-analysis of the deposited data

Results flagged for a closer look

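Under the same contrast, LPS against control, 9 of the 38 matrix genes with a value were above 0 in WT and below 0 under the Bid-/- label. Their difference of response was at least 1.00 in size on the log2 scale. The share of all genes that meet this rule was not counted, so nothing is read from the 9. Among genes at the floor, 8 of 35 matrix genes were at least 2-fold lower in response, beside 0.627% of all genes. With 1 array in each group the difference was not tested. The largest was that of decorin, Dcn (-2.02), followed by the Wnt antagonist Sfrp4 (-1.86), the collagen chaperone gene Serpinh1 (-1.40), Ccn1 (-1.31) and Sparc (-1.28). Fstl1, Igfbp7 and Lum each stood at -1.17 and biglycan, Bgn, at -1.09. Lum was below the floor on all 4 arrays, and Sfrp4 reached it on the WT LPS array alone. For Igfbp7 and Sfrp4 the value under the Bid-/- label was -0.10, close to 0, and for Bgn it was -0.16.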

How the results depend on the processing

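Limits come first from the design: 1 array a group, no scanner values, and a list chosen on these arrays. Of 115 list values recomputed under the alternatives, 97 stayed within 0.1 (medians) or 1.5 times (counts) of the reported value, 16 moved further and 2 turned sign while moving by over 0.1. With the floor at the 75th percentile (6.34), 9 genes were left, and the medians became 0.81 (LPS in WT), 1.14 (labels without LPS) and -0.72 (difference of response), with 6 genes at least 2-fold higher without LPS, 0 lower with LPS and 4 lower in response. With the intensity trend removed, 8 genes were at least 2-fold higher with LPS in WT, 1 was higher between the labels with LPS, and the median with LPS under the Bid-/- label turned to 0.072; the median of all genes there moved from -0.10 to 0.011. With intensity and gene span trends removed these counts were 7 and 1, and the median between the labels with LPS turned to -0.003. The median with LPS under the Bid-/- label, -0.04 as reported, was also above 0 there (0.031) and under quantile normalization (0.025), so its sign is not settled. Quantile normalization gave 1 gene higher between the labels with LPS. Shares of all genes past the fold were not counted for the other floors, trend removal or quantile normalization. Nothing is read from the counts under those settings. At 1.5-fold, the counts were 14 higher (LPS in WT), 2 lower (LPS under the Bid-/- label), 3 higher and 2 lower (labels with LPS) and 14 lower (difference of response). The cause of these moves was not tested, apart from the fewer genes that a higher floor leaves. Of 133 values of single genes past 2-fold, 132 stayed past it, and Igfbp7 read 0.99 in 1 setting. No paired analysis was possible with 1 array a group, and the labels give no replicate numbers. A fit of the 4 arrays without an interaction would leave 1 residual degree of freedom and was not run.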

Other observations

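Of 1007 genes outside the list that spanned at least 1.00 over the arrays, the 10 whose values, centred on their own mean, lay nearest to the median profile of the 12 matrix genes with such a span were taken as a description. That profile was -0.79 on the WT control array, 0.12 on the WT LPS array, 0.49 on the Bid-/- control array and 0.22 on the Bid-/- LPS array. The nearest was F3, tissue factor, which starts coagulation, at a distance of 0.183. It read 4.87, 5.72, 5.92 and 5.69. Rras2, a Ras-related GTPase, read 4.71, 5.80, 5.99 and 5.94. Ptx3, a secreted pentraxin, read 5.46, 6.27, 6.41 and 6.57, and Fgf7, a growth factor made by mesenchymal cells, 3.69, 4.97, 4.81 and 4.88. Ccn2, the connective tissue growth factor, was the tenth, at 6.49, 7.69, 7.60 and 7.25. The others were AW112010, Cst7, Tm4sf1, Nedd4 and Il15ra. Cst7 (8.16, 8.69, 9.19 and 8.90) encodes cystatin F, a protease inhibitor of immune cells including activated microglia, and Il15ra (6.66, 7.12, 7.67 and 7.70) an interleukin-15 receptor chain. All 10 were picked for this profile, so a low value on the WT control array is what chose them.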
